A study of Mus musculus with 4 samples.

Results

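The genes described here encode small leucine-rich proteoglycans, their binding partner dermatopontin, and 2 proteins of elastic fibres. They were chosen by symbol, with earlier results of these data known: Dcn, Bgn, Aspn, Lum, Prelp, Fmod, Ogn, Dpt, Eln and Fbln5, which is 10 of the 18193 genes that the arrays name. These 10 genes are covered by 23 probe sets, each with 1 gene symbol. The samples were RNA of cultured primary epithelial cells of the mouse intestine, 1 sample on each of 4 Affymetrix arrays. The groups, with 1 array each, were cells given IL-17A (50 ng/ml) plus FGF2 (5 ng/ml), cells given FGF2 alone, cells given IL-17A alone, each for 6 h, and cells left untreated. The concentrations of the combined group are those that the series' design gives for the single factors. All groups were cultures of crypts seeded on fibronectin in medium with serum and insulin, and the labels give neither strain, sex nor age of the mice, nor how many mice each array stands for.

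Small leucine-rich proteoglycans are secreted proteins whose curved core, built of leucine-rich repeats, binds collagen fibrils and sets their spacing and width. Most carry chondroitin, dermatan or keratan sulphate chains, and several bind growth factors of the TGF-beta family. Elastic fibres are made of cross-linked elastin laid down on a scaffold of fibrillin microfibrils, and fibulin-5 links both. In the gut wall these genes are known mainly as products of fibroblasts and smooth muscle cells, not of epithelium. FGF2, a growth factor held in the matrix by heparan sulphate, is known to lower elastin transcription in cultured lung fibroblasts.

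Promoter sequences were available for 7 of the 10 genes in RefSeq (GRCm38.p6), as windows of 250 bases before to 50 bases after the annotated start, and were not available here for Dcn, Lum and Eln. Shown are the 3 genes that differ most with FGF2 in the results that follow (Dpt, Aspn and Ogn) and Bgn, which differed little, all on the plus strand of the genome, with capitals marking matches to the TATA box letters TATAAA or the GC box letters GGGCGG on either strand.
Dpt promoter, chr1:164796413-164796712: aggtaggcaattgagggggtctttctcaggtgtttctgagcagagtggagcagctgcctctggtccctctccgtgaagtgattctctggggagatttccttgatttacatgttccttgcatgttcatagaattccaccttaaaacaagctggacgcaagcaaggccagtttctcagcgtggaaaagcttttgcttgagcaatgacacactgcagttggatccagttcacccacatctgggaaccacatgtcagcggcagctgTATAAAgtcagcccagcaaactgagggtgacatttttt
Aspn promoter, chr13:49544193-49544492: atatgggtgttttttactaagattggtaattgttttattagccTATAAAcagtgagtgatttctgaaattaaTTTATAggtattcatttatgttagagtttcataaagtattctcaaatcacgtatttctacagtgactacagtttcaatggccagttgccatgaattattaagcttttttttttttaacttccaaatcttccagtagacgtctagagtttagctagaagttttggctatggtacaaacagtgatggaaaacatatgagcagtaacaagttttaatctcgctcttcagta
Ogn promoter, chr13:49607765-49608064: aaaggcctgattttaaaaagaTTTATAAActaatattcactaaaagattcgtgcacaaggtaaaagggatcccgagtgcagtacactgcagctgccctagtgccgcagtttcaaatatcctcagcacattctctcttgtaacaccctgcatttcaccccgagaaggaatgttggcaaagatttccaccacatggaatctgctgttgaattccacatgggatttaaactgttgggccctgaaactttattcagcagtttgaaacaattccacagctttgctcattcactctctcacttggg
Bgn promoter, chrX:73483351-73483650: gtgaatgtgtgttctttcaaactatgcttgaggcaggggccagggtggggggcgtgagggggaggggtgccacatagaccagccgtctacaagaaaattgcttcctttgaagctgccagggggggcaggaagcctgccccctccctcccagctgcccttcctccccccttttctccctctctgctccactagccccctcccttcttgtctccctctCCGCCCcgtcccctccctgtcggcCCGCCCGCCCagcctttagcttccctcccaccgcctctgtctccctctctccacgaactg

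The TATAAA letters stood in the windows of Dpt, Aspn and Ogn and in 13.6% of all 32851 promoter windows. In Dpt they began at base 13 after the annotated start, in Aspn 207 and 178 bases and in Ogn 229 and 227 bases before it. In Ogn the matches on opposite strands overlap. The GGGCGG letters matched 3 times in Bgn, all as CCGCCC, and stood in 35.7% of all windows. Fbln5, not shown, had 2 such matches in 1 of its windows, 221 and 48 bases before the start, and no TATAAA match. The AP-1 letters TGANTCA (7.81% of all windows) and the ETS letters CCGGAA (14.9%) were searched on both strands too and are in none of the 8 windows of the 7 genes. A match is a run of letters and shows no binding.

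The cultures held RNA of more cell types than the label names. Epithelial markers were measured for 10 of 10 genes, with summed signals of 137137 to 145223 over the 4 arrays, and the fibroblast markers for 11 of 11 genes, with 69612 to 77737. Summed signals of the 8 smooth muscle and myofibroblast markers were 23400.5 with both factors, 25148 with FGF2 and 35687 with IL-17A, against 34871 in untreated cells. Those of the 7 endothelial markers were 8306 with both factors, 7753 with FGF2 and 5140 with IL-17A, against 5333 in untreated cells. Probe sets differ in brightness, so these sums cannot be read as proportions of cells. In bulk RNA, fewer cells of a type and less RNA per cell cannot be told apart.

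A signal is the deposited probe set value on a linear scale, and each gene is read from its brightest probe set unless another is named. Signals under the median of all signals (89.8, log2 6.49, the floor) were raised to it, and 12258 genes with a signal over it on at least 1 array are called measured. Of the 10 genes, 9 were measured and Fmod was not. With 1 array per group there is no replicate error, and no test was made. An additive model of both factors would have only the interaction, 1 value per gene, to serve as error, and the interaction is itself of interest here. Instead, each factor's difference was read in 2 pairs that share no array: FGF2 from FGF2 against untreated and from both factors against IL-17A, and IL-17A likewise. Across measured genes with a mean log2 signal of 8 to 10, the readings of a gene differed by a median of 0.17 on the log2 scale. This was 0.24 for dimmer genes, 0.11 for genes at 10 to 12 and 0.075 for brighter ones. Those figures include true interaction between the factors.

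**Figure D1:**
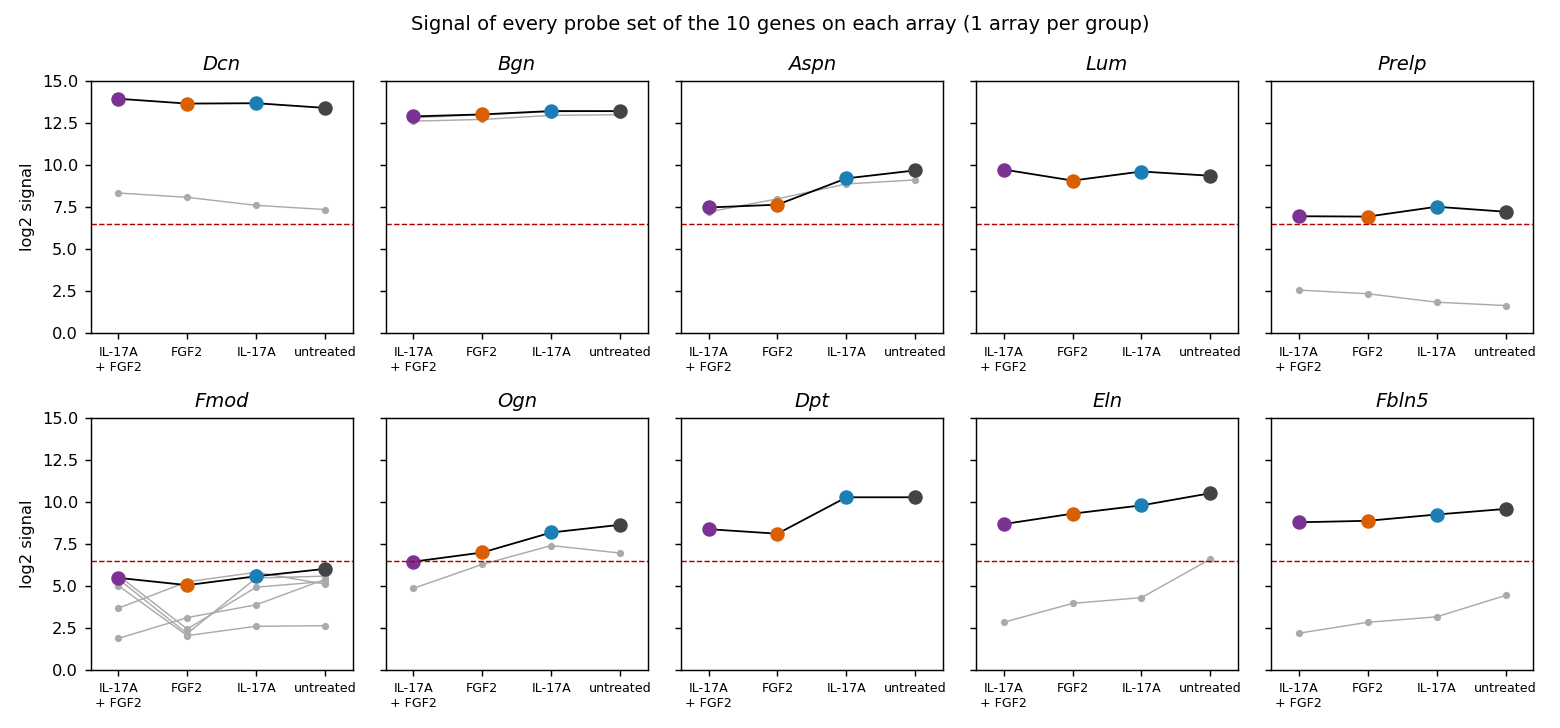
Log2 signal (vertical axis) of all 23 probe sets of the 10 genes on each of the 4 arrays (horizontal axis). Coloured points are the brightest probe set of a gene, grey points its others, and the dashed line is the floor at 6.49. In the brightest probe set, the arrays with FGF2 lie below the others for Aspn, Ogn, Dpt, Eln, Fbln5, Bgn and Prelp. Every probe set of Fmod stays under the floor.

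With FGF2 present, 4 of the 9 measured genes were at least 2-fold lower in each comparison that adds FGF2: Dpt, Aspn, Ogn and Eln. The share of all measured genes that far below was 0.963% for FGF2 against untreated, 1.73% for both factors against untreated and 0.857% for both factors against IL-17A. In both pairs of arrays that share none, the same 4 genes were at least 2-fold lower, as were 52 of all 12258 measured genes (0.424%). The genes were selected with these values known, so the shares are given as a description. With the floor at the 75th percentile of signals, Dpt and Eln alone passed 2-fold for FGF2 against untreated, Aspn came to −0.82 on the log2 scale as a lower bound of the difference, and Ogn was not measured. For both factors against IL-17A, Eln was at −1.11 and came to −0.99 with arrays centred on their median, −0.97 with the floor added to the signal, −0.92 with the floor at the 75th percentile and −0.56 with the mean of probe sets, so its call there was lost and the count was 3, or 1 with the higher floor. No measured member was at least 2-fold higher (0 in each of the 5 comparisons). Of all measured genes, 0.473% were that far higher with FGF2 and 0.906% with both factors against untreated, and 0.547% with both factors against IL-17A. The median log2 ratio of the 9 genes was −0.71 with FGF2 and −0.80 with both factors, each against untreated, and −0.56 for both factors against IL-17A. Over all measured genes these medians were −0.0094, 0.00 and 0.00.

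Among class I proteoglycans, Dcn was higher, Bgn slightly lower and Aspn far lower with FGF2. Dcn encodes decorin, which binds type I collagen and TGF-beta. Its signals were 15772 with both factors, 12918 with FGF2 and 13120.3 with IL-17A, against 10810.5 in untreated cells. The untreated array was thus the lowest, the single factors lay close together, and the combination was highest. Against untreated cells the log2 ratios were 0.54 with both factors, 0.26 with FGF2 and 0.28 with IL-17A. Adding FGF2 to IL-17A gave 0.27 and adding IL-17A to FGF2 gave 0.29, so the readings of each factor differed by 0.0087, the interaction. These signals are near the top of the scale, whose highest log2 values were 14.7 to 14.9, against 13.4 to 13.9 for Dcn. A dimmer Dcn probe set was also highest with both factors and lowest in untreated cells, with the single factors in the other order: 323 with both factors, 270.1 with FGF2 and 194 with IL-17A, against 163 in untreated cells, and log2 ratios to untreated of 0.99 with both, 0.73 with FGF2 and 0.25 with IL-17A.

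Bgn encodes biglycan, the closest relative of decorin and also a ligand of Toll-like receptors when released from the matrix. Its signals were 7616 with both factors, 8270.2 with FGF2 and 9505 with IL-17A, against 9452 in untreated cells. The FGF2 arrays were the lower pair, by log2 ratios of −0.19 for FGF2 against untreated and −0.32 for both factors against IL-17A. The other 2 Bgn probe sets gave −0.21 and −0.28 for the first of these and −0.36 and −0.34 for the second. IL-17A against untreated lay between −0.04 and 0.01 over the 3 probe sets.

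Aspn encodes asporin, which carries a run of aspartate residues in place of sulphated chains and binds collagen and TGF-beta. Its signals were 178 with both factors, 199 with FGF2 and 591 with IL-17A, against 821 in untreated cells. Both arrays with FGF2 were far below both without it: 4.62-fold lower with both factors and 4.12-fold lower with FGF2 against untreated, and 3.32-fold lower with both factors against IL-17A. This probe set can detect several transcripts. The second Aspn probe set, free of that limit, had 148 with both factors, 254 with FGF2 and 470 with IL-17A, against 554 in untreated cells. It kept the order of the arrays with a smaller difference for FGF2 alone, a log2 ratio of −1.13 in place of −2.04, while both factors against IL-17A was −1.67 in place of −1.73. IL-17A against untreated was −0.47 and −0.24 in the brighter and the dimmer probe set.

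Of class II, Lum encodes lumican, a keratan sulphate proteoglycan of collagen fibrils. Its signals were 851 with both factors, 539 with FGF2 and 784 with IL-17A, against 658 in untreated cells. The arrays with IL-17A were the higher pair, by log2 ratios of 0.25 for IL-17A against untreated and 0.66 for both factors against FGF2, which is 1.58-fold higher. The readings for FGF2 had opposite signs, −0.29 against untreated and 0.12 against IL-17A, and their difference of 0.40 exceeds the median of 0.17 for genes of that brightness but not their 99th percentile of 0.88. Lum has 1 probe set, so no other probe set can be set beside it.

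Prelp, whose product binds collagen and heparan sulphate in basement membranes, was dim: 124 with both factors, 122 with FGF2 and 183 with IL-17A, against 149 in untreated cells. The FGF2 arrays were lower, by log2 ratios of −0.29 and −0.56 in its pairs of arrays, which is at most 1.48-fold. The Prelp probe set read here can detect several transcripts, and its second probe set stayed under the floor. Fmod, which encodes fibromodulin, had signals of 44.3, 32.8 and 47.2 with both factors, FGF2 and IL-17A, against 64.2 in untreated cells, all under the floor, as were its other 5 probe sets, and no ratio is given.

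Ogn, of class III, encodes osteoglycin (mimecan), a small keratan sulphate proteoglycan. Its signals were 86.4 with both factors, 126 with FGF2 and 288 with IL-17A, against 395 in untreated cells. The array with both factors was under the floor and FGF2 alone lay just over it. FGF2 against untreated was 3.14-fold lower, both factors against untreated at least 4.40-fold, and both factors against IL-17A at least 3.21-fold. The second Ogn probe set was over the floor on only 2 arrays, with 28.8 with both factors, 77.2 with FGF2 and 168 with IL-17A, against 123 in untreated cells. The arrays with FGF2 were again lower there, but IL-17A against untreated was 0.45, opposite in sign to the −0.46 of the brighter probe set.

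Dpt encodes dermatopontin, which binds decorin and TGF-beta and speeds the assembly of collagen and fibronectin fibrils. It had signals of 330.1 with both factors, 274 with FGF2 and 1230.2 with IL-17A, against 1230.5 in untreated cells. The arrays formed pairs by the presence of FGF2, and IL-17A against untreated was a log2 ratio of −0.000395. FGF2 against untreated was 4.50-fold lower and both factors against IL-17A 3.73-fold lower. In the presence of FGF2, the IL-17A array was higher by 0.27 on the log2 scale. Dpt has 1 probe set.

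**Figure D2:**
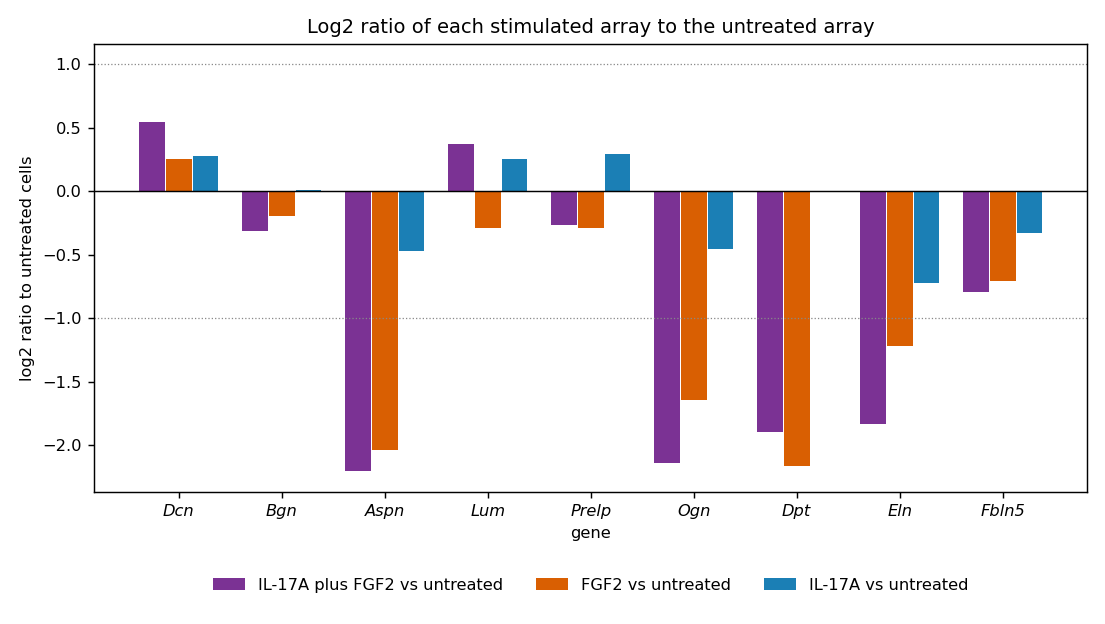
Log2 ratio of each stimulated array to the untreated array (vertical axis) for the 9 measured genes (horizontal axis), 1 bar per comparison. Dotted lines mark 2-fold. Aspn, Ogn, Dpt and Eln pass 2-fold lower with FGF2 and with both factors, Dcn is above 0 in all 3 comparisons, and the bar of Ogn with both factors is a lower bound of the difference.

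Of the elastic fibre genes, Eln encodes tropoelastin, the soluble precursor of elastin. Its signals were 407 with both factors, 626 with FGF2 and 881 with IL-17A, against 1455 in untreated cells. Untreated cells were highest, the combination lowest, and the single factors lay between. FGF2 was 2.32-fold lower than untreated and both factors 2.16-fold lower than IL-17A. IL-17A was 1.65-fold lower than untreated and both factors 1.54-fold lower than FGF2. Together they came to 3.57-fold lower than untreated, with an interaction of 0.10 on the log2 scale, which is under the median of 0.17 for genes of that brightness. The second Eln probe set was over the floor on the untreated array only, with 7.09 with both factors, 15.4 with FGF2 and 19.6 with IL-17A, against 96.0 in untreated cells. The mean of both probe sets, with the dim one at the floor on 3 arrays, put FGF2 against untreated at −0.66, both factors against untreated at −0.97 and both factors against IL-17A at −0.56, each under 2-fold.

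Fbln5 encodes fibulin-5, which binds tropoelastin and the cross-linking enzyme Loxl1. Its signals were 438 with both factors, 466 with FGF2 and 604 with IL-17A, against 761 in untreated cells, the same order as Eln with smaller steps. FGF2 was 1.63-fold lower than untreated and both factors 1.38-fold lower than IL-17A. IL-17A was 1.26-fold lower than untreated, while both factors were 1.06-fold lower than FGF2 alone, less than the median difference between readings at that brightness. Its second probe set was under the floor on all arrays.

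For IL-17A, no measured member passed 2-fold in either pair (0 of 9 in each). Among all measured genes, 0.228% were that far lower and 0.375% higher against untreated, and 0.269% lower and 0.367% higher with both factors against FGF2. Below 0 in both pairs were 4 members (Aspn, Ogn, Eln and Fbln5) and above 0 in both were 3 (Dcn, Lum and Prelp), against 28.4% and 25.8% of measured genes. Prelp was only just above 0 for both factors against FGF2, at 0.02. For FGF2, 7 members were below 0 in both pairs, 1 (Dcn) was above 0 in both, and Lum differed in sign, against 32.9% and 31.6% of measured genes. Eln, with log2 ratios of −0.72 and −0.62, was the member furthest below in both IL-17A pairs, and the only one whose values there both exceeded 1.5-fold.

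**Figure D3:**
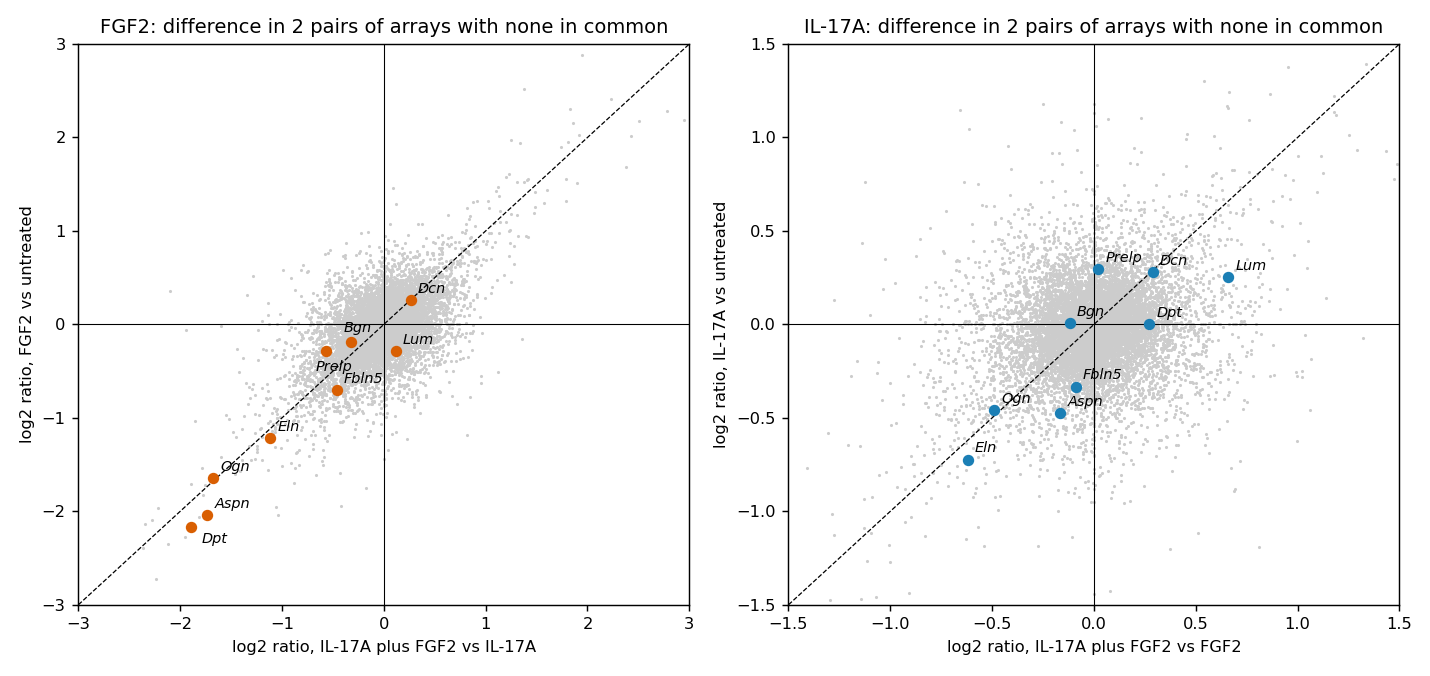
Each factor's log2 ratio in 2 pairs of arrays that share none, for FGF2 (left) and IL-17A (right), with the pair in the presence of the other factor on the horizontal axis. Grey points are 12258 measured genes, of which 2 and 29 lie outside the axes, coloured points are the 9 members, and the dashed line marks equal values. Dpt, Aspn, Ogn and Eln lie far along the line for FGF2, and Eln is the member furthest below 0 on both axes for IL-17A.

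Members that lie side by side in the genome did not all differ alike. On chromosome 13 the order is Ecm2, Aspn, Omd, Ogn: both members there were lower with FGF2, and Omd and Ecm2, further leucine-rich repeat genes, were under the floor on every array. On chromosome 10, Dcn is followed by Lum, Kera and Epyc: Dcn was higher with FGF2 in both pairs, Lum had readings of opposite sign, and Kera and Epyc were under the floor. On chromosome 1, Optc and Prelp precede Fmod, and only Prelp was measured. Of 9 other small leucine-rich repeat genes in the table only Podn, which encodes podocan, was measured, with signals of 144 with both factors, 83.7 with FGF2 and 237 with IL-17A, against 204 in untreated cells. It was at least 2.28-fold lower with FGF2 than untreated and 1.64-fold lower with both factors than IL-17A.

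Other genes of elastic fibres shared the direction of Eln and Fbln5 with FGF2. Of 14 measured, 13 were below 0 for FGF2 against untreated (51.6% of all measured genes were), with a median log2 ratio of −0.44, and 1 was at least 2-fold lower. This was Efemp1 (fibulin-3), at 36.0 with both factors, 98.7 with FGF2 and 236 with IL-17A, against 215 in untreated cells. Fbln7 and Mfap4 were over the floor on the untreated array only, so their ratios to untreated (−0.38 and −0.77) could only be below 0. For both factors against IL-17A, 10 of 14 were below 0 (47.6% of measured genes) and the median was −0.35. Fbln7 and Mfap4 counted there as 0, with both arrays raised to the floor. Fbn2, which encodes the microfibril protein fibrillin-2, was 1.60-fold and 1.57-fold lower in the FGF2 pairs, and Emilin1, which encodes a glycoprotein between elastin and microfibrils, 1.74-fold and 1.41-fold. Mfap2 and Mfap5, which encode microfibril-associated glycoproteins, had log2 ratios of −0.52 and −0.33 for FGF2 against untreated, and Ltbp3, a TGF-beta binding protein gene, −0.07. All 4 measured lysyl oxidase genes, whose products cross-link elastin and collagen, were below 0 with FGF2 against untreated (median −0.51), and Lox was 1.51-fold lower, with signals of 5352 with both factors, 5721 with FGF2 and 9045 with IL-17A, against 8634 in untreated cells. Loxl4 was 0.17 above 0 for both factors against IL-17A.

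Genes that build the sulphated chains did not share this direction. Of 19 measured glycosaminoglycan synthesis genes, 11 were below and 7 above 0 for FGF2 against untreated, with a median of −0.03. Of all measured genes, 51.6% were below 0 there. The sulphotransferase genes Chst1 and Chst2, whose products can sulphate keratan sulphate, were 1.94-fold and 1.77-fold higher, and Chst1 had signals of 1050.2 with both factors, 1037 with FGF2 and 708 with IL-17A, against 535 in untreated cells. Csgalnact1, which starts chondroitin chains, was 1.40-fold higher with FGF2 than untreated and 1.72-fold higher with both factors than IL-17A. Dse, an epimerase gene of dermatan sulphate, was −0.25 and −0.20 in these pairs. Chsy3 was the furthest below 0 of the list, at −0.68 in each of them. Its value for FGF2 against untreated is a bound, since its FGF2 array was under the floor.

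Of the listed fibrillar and associated collagen genes, 12 of 12 were below 0 with FGF2 in both pairs (32.9% of all measured genes were). The medians were −0.45 against untreated and −0.50 for both factors against IL-17A. Col1a1 was 2.09-fold and Col6a1 1.94-fold lower with FGF2 than untreated, and Col5a2 had the smallest difference at −0.14. Among genes of TGF-beta signalling, Tgfb1 was 1.97-fold higher with FGF2 than untreated and 2.18-fold higher with both factors than IL-17A. Tgfb3 had signals of 269 with both factors, 406 with FGF2 and 360.1 with IL-17A, against 543 in untreated cells, highest in untreated cells and lowest with both factors, as for Eln. The receptor gene Tgfbr3 was 1.78-fold lower with FGF2, and the list of 18 had a median of −0.03. Of 17 measured matrix-cleaving proteases and their inhibitors, 11 were above and 6 below 0 with FGF2 against untreated, where 51.6% of all measured genes were below. Mmp3, which can cleave decorin, was 5.31-fold higher, Mmp9 4.55-fold and Mmp13 4.03-fold. These 3 alone of the list were at least 2-fold higher, as were 0.473% of all measured genes. Mmp12, the macrophage elastase gene, was at 0.20 with FGF2 against untreated and 0.78 for both factors against IL-17A. Mmp7 was lower, at −0.87 and −0.72 in these pairs, and Elane was under the floor.

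**Figure D4:**
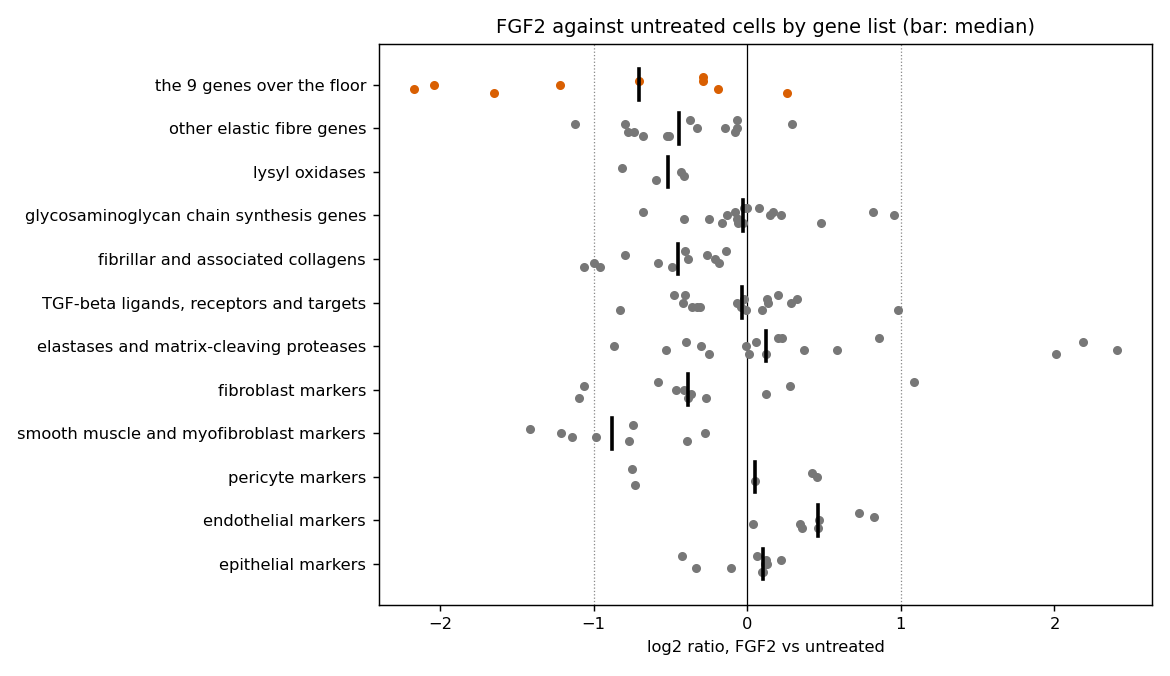
Log2 ratio of FGF2 against untreated cells (horizontal axis) for the 9 measured members (orange) and the measured genes of 11 lists (grey), with the median of each as a bar and dotted lines at 2-fold. Medians of the members (−0.71) and of smooth muscle and myofibroblast markers (−0.88) lie furthest below 0, and that of endothelial markers (0.46) furthest above.

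Marker lists of other cell types differed with FGF2 too, in both directions. All 8 smooth muscle and myofibroblast markers were below 0 with FGF2 against untreated (median −0.88, 3 of them at least 2-fold). The same held for both factors against IL-17A (median −1.005, 4 of them at least 2-fold). Of all measured genes, 51.6% and 47.6% were below 0 in these pairs, and 0.963% and 0.857% at least 2-fold lower. The value of Lmod1 for both factors against IL-17A is a bound, since its array with both factors was under the floor. Cnn1, which encodes calponin, was 2.66-fold and 3.03-fold lower. Fibroblast markers were below 0 in 8 of 11 genes in each of these pairs, with medians of −0.39 and −0.49. Both medians are the values of Col3a1, which, like Col1a1 and Col1a2, is also counted among the collagens above. Within the fibroblast list, Pdgfra was 2.13-fold and 2.10-fold lower, whereas Pdpn was 1.09 and 1.08 above 0, Vim 0.28 in both pairs and Pdgfrb 0.12 and 0.24. Endothelial markers were above 0 in 7 of 7 genes with FGF2 against untreated (median 0.46) and in 6 of 7 for both factors against IL-17A (median 0.75). Of 5 pericyte markers, 3 were above 0 in each of these pairs, with medians of 0.05 and 0.18: with FGF2 against untreated, Abcc9 was at 0.45, Kcnj8 at 0.42 and Cspg4 at 0.05, whereas Rgs5 was at −0.73 and Notch3 at −0.75. Epithelial markers had medians of 0.10 and 0.05, and mesothelial markers, 3 of 4 measured, −0.16 and −0.33. The −0.16 is the value of Upk3b, which was over the floor on the untreated array only and so could only be below 0. With FGF2 against untreated, Msln was at −0.10 and Wt1 at −0.80. Upk3b counted as 0 for both factors against IL-17A. Glial markers, 3 measured, had medians of −0.38 and −0.15, and macrophage and leukocyte markers, 4 of 7 measured, −0.13 and −0.25. The part of all these cell types in the differences of the proteoglycan and elastic fibre genes was not tested.

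The 5 genes whose 3 log2 ratios to untreated lay nearest to the median of the 9 members, among 8844 measured genes with a mean log2 signal of at least 8, were Rgs5, Gbp2, Fgl2, Gpr176 and Car4, at Euclidean distances of 0.040 to 0.11 over 4 arrays. The median, taken for each comparison apart, was −0.000395 with IL-17A, −0.71 with FGF2 and −0.80 with both. The IL-17A value is that of Dpt, which was at −2.17 with FGF2. The other values are those of Fbln5, which was at −0.33 with IL-17A. No member has this profile, so likeness to it is not likeness to any member. Rgs5, a regulator of G-protein signalling, had signals of 1653 with both factors, 1775 with FGF2 and 2946 with IL-17A, against 2939 in untreated cells. With only 4 arrays many genes share such a pattern, and the likeness is a description.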

How the data were processed

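RNA from 4 cultures was hybridised to 1 array each, per the labels. The authors deposited log2 signals per probe set, and the probes were summarised with MAS5, per the submitters' processing notes; version and detection calls are not given in the sources used here. Back on the linear scale, the mean of each array after trimming 2% of values was 500.0, from the deposited log2 values. MAS5 subtracts mismatch signal, so dim values are noisy. Of 45101 probe sets, 64 controls were left out and 34945 had 1 symbol in the platform annotation. A gene was read from its brightest probe set by mean log2 signal, and signals under the median of all signals were raised to it. Log2 ratios, counts past 2-fold and medians were computed with Python 3.11.15, numpy 2.4.6 and pandas 2.3.3. The code was run on simulated arrays with shifts larger than 2-fold in bright genes. That run checks the code only and cannot gauge the error of the members' ratios. No test across samples was made, and the number of arrays limits the precision. Every member is named with all its probe sets, list genes may be named, and 5 most alike genes follow from Euclidean distance. Members and lists were chosen with earlier results of these data known. Alternatives were median centring, quantile normalization, a floor at the 25th or 75th percentile, a floor added to the signal, the mean of probe sets, leaving out probe sets that can detect several transcripts, and thresholds of 1.5-fold and 3-fold.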

Additional observations from a re-analysis of the deposited data

Results flagged for a closer look

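In 3 members over the floor on all arrays, the readings of a factor's difference had opposite signs, and the difference between readings was not tested. Lum was −0.29 on the log2 scale for FGF2 against untreated and 0.12 for both factors against IL-17A. Bgn was 0.0082 for IL-17A against untreated and −0.12 for both factors against FGF2. Dpt was −0.000395 for IL-17A against untreated and 0.27 for both factors against FGF2.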

How the results depend on the processing

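Of 132 values for the members as a group, 122 moved by less than 0.20 (medians, the spread of a log2 ratio at 8 to 10) or 1.5 times (counts). Medians near 0 did not keep their sign: that for IL-17A against untreated, −0.000395, was 0.036 with arrays centred on their median, and that for both factors against FGF2, −0.089, was 0 with the floor at the 75th percentile. With the floor at the 75th percentile, 7 members were measured. The count at least 2-fold lower was then 2 with FGF2 and 2 with both factors against untreated and 1 with both factors against IL-17A, where the median was −0.35; raising more signals to the floor shortens such ratios. Without probe sets that can detect several transcripts the medians were −0.92 with FGF2 and −1.32 with both factors against untreated, and −0.79 with both factors against IL-17A, over 8 members, because Prelp is no longer measured. At a threshold of 1.5-fold, 1 member was lower with IL-17A against untreated, and 1 lower and 1 higher with both factors against FGF2, as a lower threshold admits more genes. Of 295 values for single members, 256 kept within 0.20 and 39 moved further. None (0 of these) reversed a ratio larger than 0.20. For FGF2 against untreated the ranges over alternatives were −2.04 to −0.82 for Aspn, −2.17 to −1.40 for Dpt, −1.22 to −0.66 for Eln, −1.65 to −1.05 for Ogn and 0.20 to 0.49 for Dcn. No paired analysis was possible because each group has 1 array and the labels number no replicates; reading a factor with and without the other one is part of the layout and is given in the report.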
